A study of Mus musculus with 10 samples.

Results

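Chemokine ligands are small, mostly secreted proteins that steer the movement of leukocytes. They were taken here as all non-control probes of a mouse expression array whose gene name began with Ccl, Cxcl, Cx3cl or Xcl followed by a number. That gave 45 probes for 35 gene names, of 41143 probes used. The scanner software calls each spot well above background or not. In at least 1 group, 39 ligand probes for 30 genes passed this call on both arrays, as did 28760 of all probes. The brightest such probe stood for its gene, so that 30 ligand genes were among the 19055 genes tested. The genes not tested were Ccl1, Ccl22, Cxcl2, Cxcl15 and Ppbp, the platelet ligand that the files call Cxcl7. Of their probes 5 passed the call on no array, and 1, for Cxcl15, passed on Sox2xOct4 replicate 1 alone. Of the tested ligands, 27 were well above background on all 10 arrays. The genes not well above background on every array were Ccl24 with 9 arrays, Cxcl5 with 7 and Cxcl1 with 6. By the probes' positions, 11 of the 30 lie on chromosome 11 and 8 on chromosome 5.

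The arrays hold ileum RNA of C57BL/6 mice aged 6 to 8 weeks, in 5 groups of 2 arrays. Sox2 +DOX mice carried the doxycycline-inducible TetON-Sox2 transgene and drank doxycycline (DOX) at 2 mg/ml with 1% sucrose for 2 days, and Sox2 -DOX mice carried the same transgene without the drug, with no sucrose recorded. Sox2xOct4 +DOX mice carried inducible Sox2 and Oct4, Oct4 +DOX mice inducible Oct4, and rtTA +DOX mice the doxycycline-dependent transactivator rtTA without a Sox2 transgene, all on the same drug. The sources used here name neither the promoter that drives rtTA nor the cells that respond, and whether the 2 arrays per group come from different animals was not given in them. The p-values thus reflect the spread between these samples alone, which may be technical except in Oct4 +DOX mice, whose 2 arrays differ in sex-linked genes.

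Chemokines bind G protein-coupled receptors on leukocytes, and each receptor marks certain cells: CXCR3 is found on activated T and natural killer cells, CXCR2 on neutrophils, CCR3 on eosinophils and CCR9 on lymphocytes that home to the small intestine. Ligands are classed as CC, CXC, XC or CX3C by the spacing of their first cysteines. In the small intestine some are made steadily by the epithelium, and others are induced by interferon-gamma, by interleukin-17 or by bacterial products acting through NF-kB.

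Unless stated otherwise, values are the scaled log2 signal, which is the log2 of a probe's signal divided by the 75th percentile of its array. A value of 0 is the brightness of that percentile, and values of different probes are not compared with each other. Changes are differences of group means with the standard error (SE) of limma's moderated fit, and a gene was called at a Benjamini-Hochberg adjusted p under 0.05 over all tested genes. Where a group was not well above background, a fold is given as "at least", measured against the dimmest reliable signal of that group's arrays. The 4 TetON-Sox2 arrays shared 1 slide, the rtTA and Sox2xOct4 arrays another, and the Oct4 arrays another still. Comparisons of Oct4 or Sox2 +DOX mice with rtTA +DOX mice therefore cross slides, where slide and group cannot be told apart. The Y-linked Eif2s3y was well above background on the 4 TetON-Sox2 arrays and on Oct4 replicate 1, at 1.61 to 2.10, and Xist was high on the other 5, at 2.62 to 3.89, so sex also moves with group across slides. The 2 Oct4 +DOX arrays differ in these genes, so they come from different animals, and the spread within that group holds a sex difference. Pou5f1, which encodes Oct4, was well above background on both Oct4 +DOX arrays (6.20 and 4.79) and on both Sox2xOct4 +DOX arrays (2.64 and 0.92). The probe for Sox2 was not well above background on any array and so does not check the labels. Epcam, Vil1, Krt20 and Cdx2, which mark intestinal epithelium, were well above background on all 10 arrays.

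**Figure D1:**
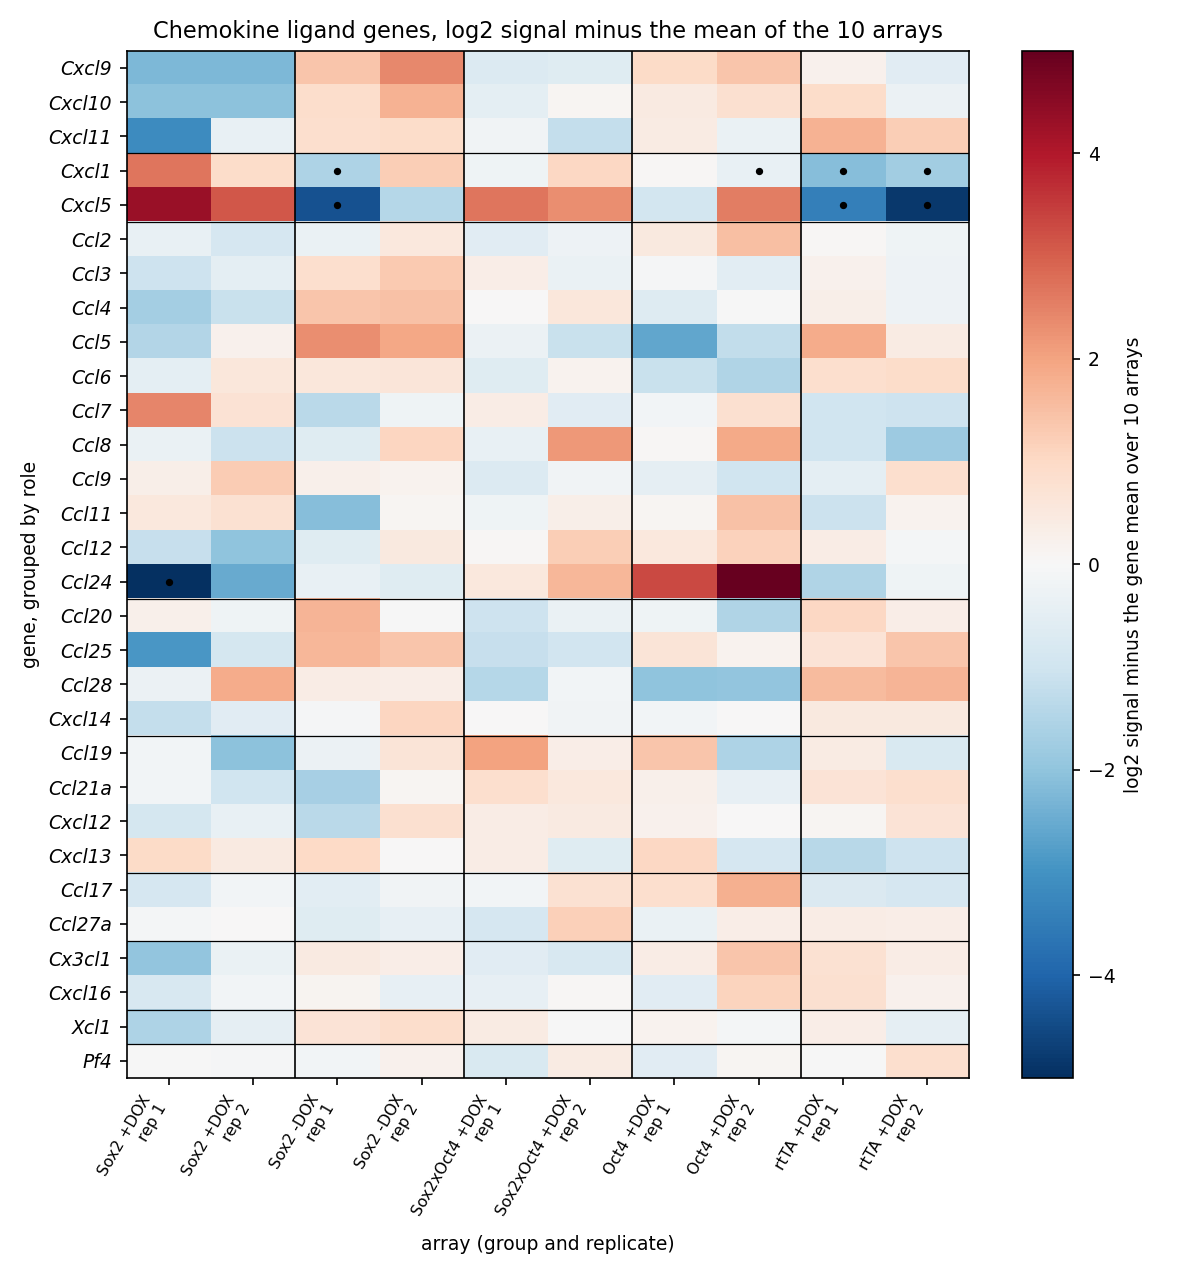
Scaled log2 signal of the 30 tested chemokine ligand genes on the 10 arrays, each gene shown as its difference from its own mean over all arrays, with genes grouped by role and dots where the probe was not well above background; colours end at differences of 5 in either direction. The CXCR3 ligands Cxcl9 and Cxcl10 are lowest on the 2 Sox2 +DOX arrays, and Cxcl5 is highest there.

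In Sox2 +DOX mice, set against Sox2 -DOX mice, 7 of the 30 ligands were called, or 23.3%, where 7.84% of all tested genes were called. Cxcl9, Cxcl10, Ccl3, Ccl4, Xcl1 and Ccl25 fell and Cxcl5 rose, so 6 were lower, against 4.8% of all genes, and 1 was higher, against 3.03%. Of all genes called, 38.7% were higher, or 49.3% under normexp background correction with quantile normalization. For 18 of 30 ligands the groups did not overlap at all, which was so for 66.4% of all genes. The median ligand changed by -0.75 on the log2 scale, with 21 of 30 below 0, beside a median of -0.10 over all tested genes. At an unadjusted p under 0.05 there were 14 ligands, beside 27.1% of all genes. The 7 calls became 2 without Sox2 +DOX replicate 1, where 1.22% of all genes were called, and 2 without replicate 1 of the Sox2 -DOX mice, where 0.866% were. They became 12 when Sox2 +DOX replicate 2 was left out (9.07% of all genes) and 3 when replicate 2 of the Sox2 -DOX mice was (1.49%). Because each array holds RNA of the whole tissue, fewer cells of a type and less RNA per cell cannot be told apart. Sox2 induction, the drug and its sucrose change together in this comparison and cannot be told apart either.

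Of the 3 ligands of CXCR3, which interferon-gamma induces and which draw activated T and natural killer cells, Cxcl9 and Cxcl10 fell. Cxcl9 had a scaled log2 signal of -3.74 and -3.74 on the Sox2 +DOX arrays, against -0.12 and 0.91 on the Sox2 -DOX arrays. Cxcl10 had -3.54 and -3.51 in Sox2 +DOX mice, against -0.59 and 0.27 in Sox2 -DOX mice. For both genes the groups were far apart, and each treated array lay below every array of the other 4 groups. Cxcl9 was 17.6-fold lower (log2 change -4.13 ± 0.41, SE, adjusted p = 0.00207) and Cxcl10 10.3-fold lower (-3.37 ± 0.46, adjusted p = 0.00736). Cxcl11, the remaining CXCR3 ligand, had -5.91 and -3.14 in Sox2 +DOX mice, against -1.92 and -1.86 in Sox2 -DOX mice, and was not called (-2.64 ± 0.79, adjusted p = 0.0806). The Cxcl10 call was lost without replicate 1 of the Sox2 +DOX mice (-3.35) or replicate 2 of the Sox2 -DOX mice (-2.94), whereas Cxcl9 stayed called without any 1 array.

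In the other groups both ligands lay above the Sox2 +DOX arrays throughout. Cxcl9 had -2.17 and -2.10 in Sox2xOct4 +DOX mice, -0.52 and -0.11 in Oct4 +DOX mice, and -1.26 and -2.04 in rtTA +DOX mice. Cxcl10 had -1.94 and -1.39 in Sox2xOct4 +DOX mice, -1.01 and -0.66 in Oct4 +DOX mice, and -0.56 and -1.78 in rtTA +DOX mice. For Cxcl10 the Sox2xOct4 and rtTA arrays overlapped, and for Cxcl9 the nearest arrays of those groups differed little. Against rtTA +DOX mice, neither gene was called in Sox2xOct4 +DOX mice (Cxcl9 -0.48 ± 0.41, adjusted p = 0.517; Cxcl10 -0.50 ± 0.46, adjusted p = 0.56). The change in Sox2xOct4 +DOX against rtTA +DOX mice, minus that in Sox2 +DOX against Sox2 -DOX mice, is termed the difference of the responses. It was 3.65 on the log2 scale for Cxcl9 (adjusted p = 0.0693) and 2.87 ± 0.66 for Cxcl10 (adjusted p = 0.194), and was called for neither. The drug and sucrose differ only within the pair of Sox2 groups, so this difference holds them as well as the transgenes.

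Cxcl9, Cxcl10 and Cxcl11 lie side by side, with probes within 38.1 kb of chromosome 5 (chr5:93398365-93436448, NCBI36/mm8). RefSeq promoter windows, of 250 bases before to 50 bases after the start site on GRCm38.p6, were at hand for Cxcl10 and Cxcl9, and both are printed because they belong to neighbouring genes that fell together. In the first, capitals mark an interferon-stimulated response element core (GAAA, any 2 bases, GAAA) at -213 and NF-kB consensus matches at -159 and -103, searched on both strands. The second, from the same strand, has no match to these or to the interferon-gamma activated sequence TTCNNNGAA.
Cxcl10 promoter, chr5:92348840-92349139, minus strand: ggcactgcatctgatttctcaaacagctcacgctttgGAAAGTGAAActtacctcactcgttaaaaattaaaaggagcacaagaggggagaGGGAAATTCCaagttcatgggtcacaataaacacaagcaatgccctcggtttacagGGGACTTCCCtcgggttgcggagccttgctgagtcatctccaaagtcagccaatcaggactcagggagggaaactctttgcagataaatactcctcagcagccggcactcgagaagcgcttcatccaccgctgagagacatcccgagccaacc
Cxcl9 promoter, chr5:92328030-92328329, minus strand: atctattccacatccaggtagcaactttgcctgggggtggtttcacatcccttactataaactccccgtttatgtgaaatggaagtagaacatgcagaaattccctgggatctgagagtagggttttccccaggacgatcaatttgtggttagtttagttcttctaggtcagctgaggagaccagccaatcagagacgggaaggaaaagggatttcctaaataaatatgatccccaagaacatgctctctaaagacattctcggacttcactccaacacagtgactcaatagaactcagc
Of the 35 named ligand genes, 26 had a promoter in the table, with 29 promoters among them, and matches are counted per promoter. The core of GAAA, any 2 bases and GAAA occurred in 3 of the 29 (Ccl19, Cxcl10 and Cxcl14), beside 3.44% of 32851 promoters of all genes. TTCNNNGAA occurred in 2 (Ccl17 and Cxcl14), beside 8.3% of all promoters. The NF-kB consensus occurred in 6 (Ccl20, Ccl27a, Ccl9, Cxcl1, Cxcl10 and Cxcl2), beside 4.51% of all promoters. A match describes letters in a window and does not show a site in use. Cxcl11 is represented by a probe that spans a splice junction (chr5:93436297-93436448, minus strand, NCBI36/mm8), shown because such a probe reads spliced RNA: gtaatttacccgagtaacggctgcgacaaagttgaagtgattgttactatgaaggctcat.

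**Figure D2:**
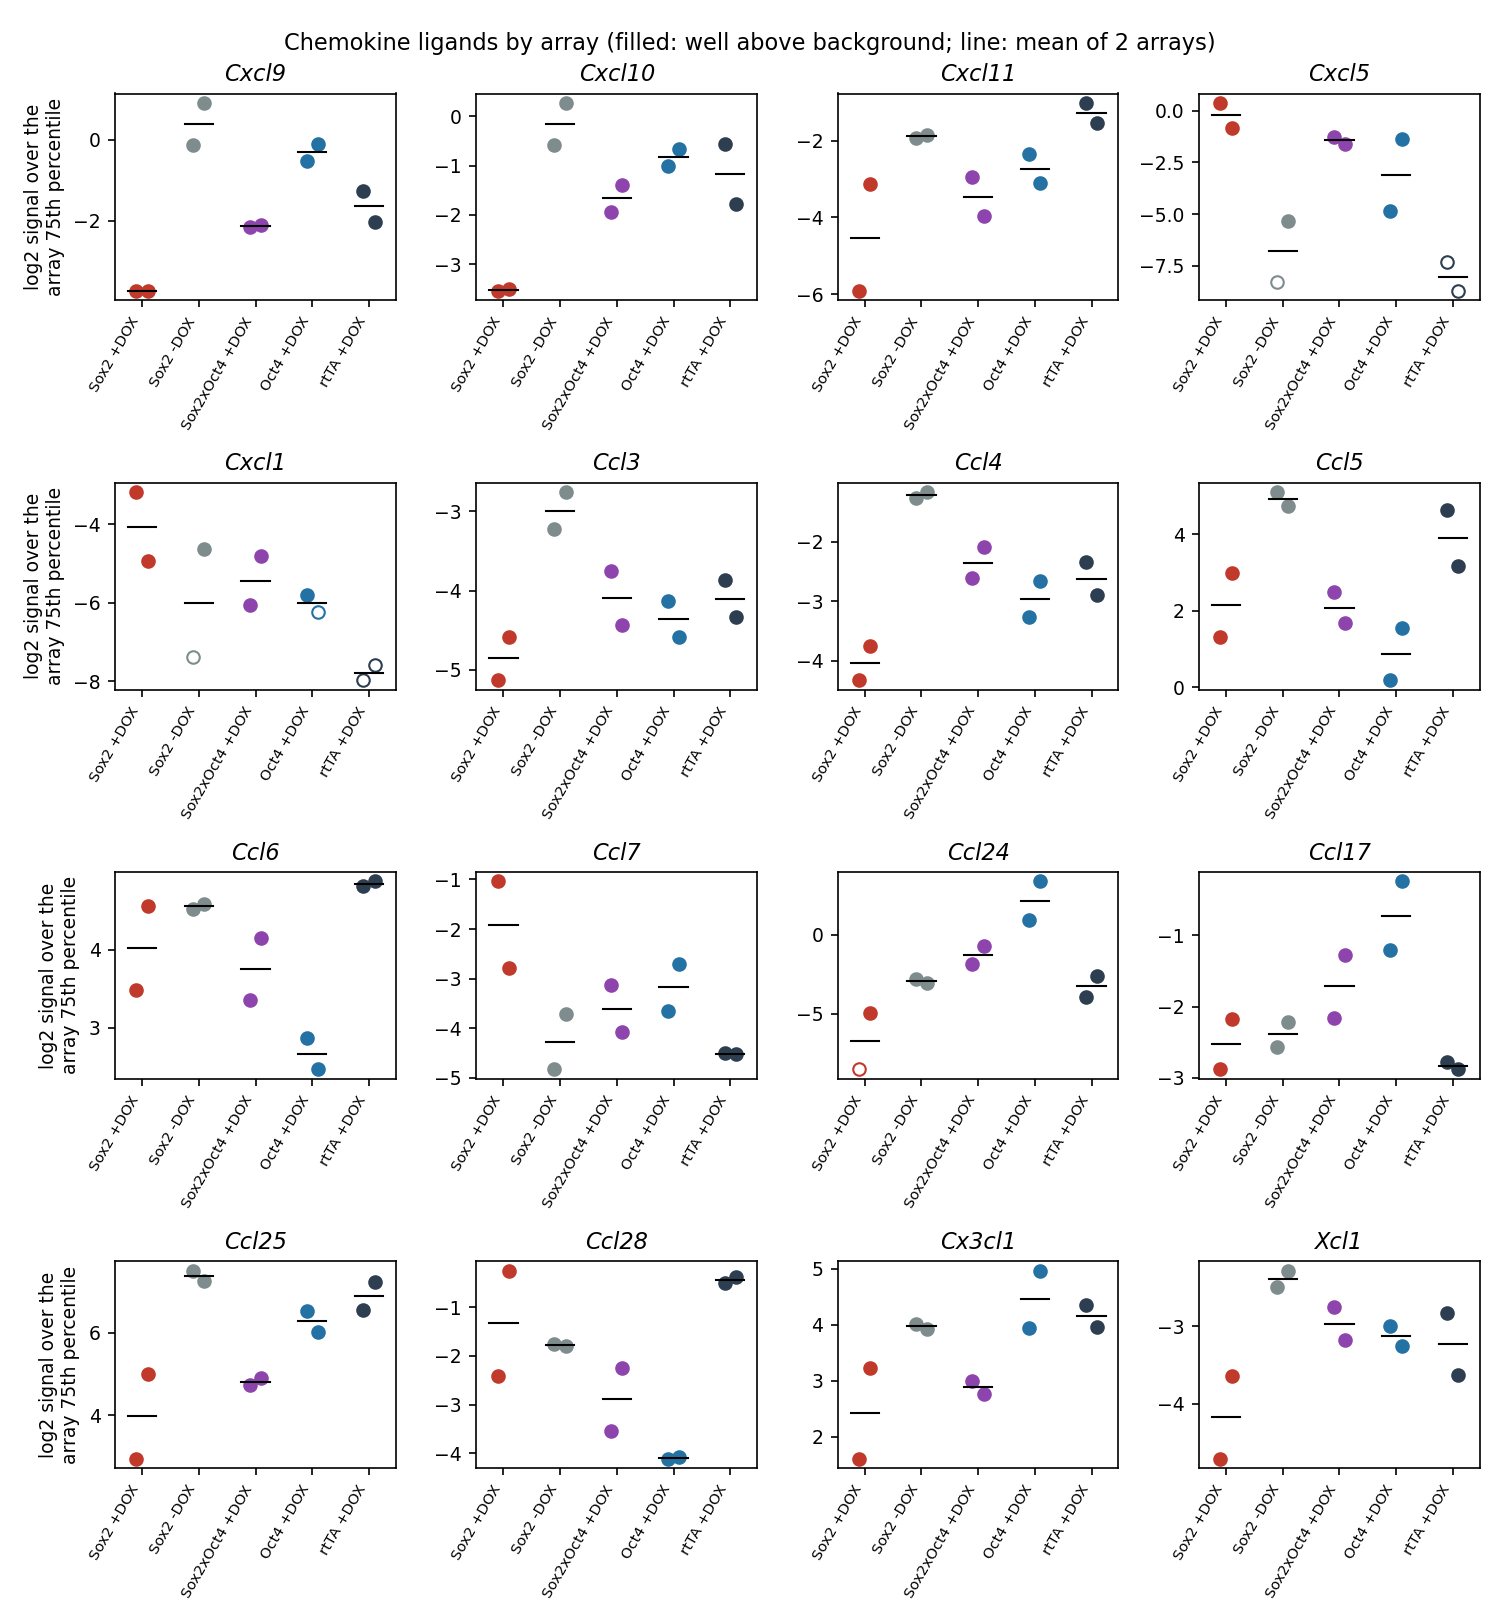
Scaled log2 signal of 16 chemokine ligand genes on each of the 10 arrays, 1 panel per gene with its own axis, points for arrays (open where not well above background) and lines for group means. Cxcl9 and Cxcl10 sit lowest in Sox2 +DOX mice, Cxcl5 is highest in the groups with a Sox2 transgene on DOX apart from 1 Oct4 +DOX array, and Ccl24 is highest on both Oct4 +DOX arrays.

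Cxcl5 was the ligand that rose. It is an epithelial product in the gut that attracts neutrophils through CXCR2. It had 0.39 and -0.81 on the Sox2 +DOX arrays, against -8.29 and -5.34 on the Sox2 -DOX arrays. Only 1 of the 2 Sox2 -DOX arrays was well above background, so the fitted change of 6.60 ± 1.24 (adjusted p = 0.0197) rests in part on a signal near background. In Sox2xOct4 +DOX mice Cxcl5 had -1.25 and -1.61, against -7.35 and -8.73 in rtTA +DOX mice, both near background. In both pairs the groups were separated by more than 4 units on the log2 scale. Against rtTA +DOX mice Cxcl5 was at least 40.6-fold higher in Sox2xOct4 +DOX mice (6.61 ± 1.24, adjusted p = 0.0225). The Oct4 +DOX arrays had -4.84 and -1.34, and their difference from rtTA +DOX mice was not called (at least 12.8-fold higher, 4.95 ± 1.24, adjusted p = 0.12). The call in Sox2 +DOX against Sox2 -DOX mice was lost without replicate 1 of the Sox2 +DOX mice (6.00) or of the Sox2 -DOX mice (5.13). It was also lost when only these groups were fitted. The call in Sox2xOct4 +DOX mice was lost without any 1 of its 4 arrays, at 5.92 to 7.30, and under normexp background correction with quantile normalization, at 2.11.

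Cxcl1, another CXCR2 ligand, was dim throughout. It had -3.18 and -4.94 on the Sox2 +DOX arrays, against -7.39 and -4.63 on the Sox2 -DOX arrays, where replicate 1 was not well above background, and the groups overlapped. It had -6.06 and -4.81 in Sox2xOct4 +DOX mice and -5.80 and -6.23 in Oct4 +DOX mice, with replicate 2 not well above background, against -7.97 and -7.58 in rtTA +DOX mice, where neither array was well above background. Cxcl1 was not called in Sox2 +DOX against Sox2 -DOX mice (1.95 ± 0.90, adjusted p = 0.206) or in Sox2xOct4 +DOX against rtTA +DOX mice (at least 2.53-fold higher, 2.34 ± 0.90, adjusted p = 0.162). Cxcl3, a close relative that the array file lists as Gm1960 and that the name rule therefore left out, was called in Sox2 +DOX against Sox2 -DOX mice (at least 6.17-fold higher, 4.88 ± 1.14, adjusted p = 0.039). Cxcl3 had -1.86 and -4.80 in Sox2 +DOX mice, against -8.25 and -8.18 in Sox2 -DOX mice, where neither array was well above background. Only the Sox2 +DOX group had it well above background on both arrays. Cxcl3 was thus tested only through the group where it is high, and its call is no separate support for the Cxcl5 rise. Cxcl2 and Cxcl15 were well above background on both arrays of no group, so no change is given for them. The receptor Cxcr2 was well above background on 1 array and was not tested.

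Probes for Cxcl5, Pf4 and Cxcl1 lie within 131.7 kb of chromosome 5 (chr5:91836379-91968078, NCBI36/mm8). Pf4, the platelet factor in that stretch, had -1.70 and -1.72 in Sox2 +DOX mice, against -1.80 and -1.46 in Sox2 -DOX mice, and was not called in any comparison. Among the marker lists, that for neutrophils and mast cells, with 7 of 10 genes tested, had summed linear signals of 1.92 to 2.10 in Sox2 +DOX mice, against 0.899 to 1.07 in Sox2 -DOX mice. The same sum was 3.69 to 4.10 in Sox2xOct4 +DOX mice and 1.41 to 3.71 in Oct4 +DOX mice, against 1.1 to 1.21 in rtTA +DOX mice. Kit (1.27 and 0.28) and S100a9 (0.54 and 1.15) added most to it on the Sox2xOct4 +DOX arrays. Of the 7, 5 were above 0 and 2 below in Sox2 +DOX against Sox2 -DOX mice (median 0.58), and 3 above and 4 below in Sox2xOct4 +DOX against rtTA +DOX mice (median -0.10). S100a9, a neutrophil calcium-binding protein that epithelium can also make, rose in Sox2 +DOX against Sox2 -DOX mice (2.82, adjusted p = 0.0268). It also rose against rtTA +DOX mice, by 5.38 with Sox2xOct4 (adjusted p = 0.00357) and by 3.88 with Oct4 (adjusted p = 0.0243), all on the log2 scale. The mast cell proteases Mcpt1 and Mcpt4 changed by -2.66 and -1.94 in Sox2xOct4 +DOX against rtTA +DOX mice and were not called. Elane, a defining neutrophil granule enzyme, was well above background on no array. The part of these cells in the Cxcl5 values was not tested.

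The inflammatory CC ligands, which draw monocytes, T cells and eosinophils, had 11 tested members, of which 2 fell and none rose in Sox2 +DOX against Sox2 -DOX mice, where 4.8% of all genes fell and 3.03% rose. Their median change was -0.96, beside -0.10 over all genes. Ccl3 had -5.13 and -4.58 on the Sox2 +DOX arrays, against -3.23 and -2.76 on the Sox2 -DOX arrays. Ccl4 had -4.33 and -3.75 in Sox2 +DOX mice, against -1.26 and -1.17 in Sox2 -DOX mice. Both are made by activated T cells, natural killer cells and macrophages, and for both the groups did not overlap. Ccl4 was 7.08-fold lower (-2.82 ± 0.37, adjusted p = 0.00634) and Ccl3 3.63-fold lower (-1.86 ± 0.38, adjusted p = 0.0258). Set against rtTA +DOX mice, on another slide, neither was called in Sox2 +DOX mice. The Ccl4 call was lost without Sox2 -DOX replicate 1 (-2.87). The Ccl3 call was lost without Sox2 -DOX replicate 1 (-2.09), Sox2 +DOX replicate 1 (-1.59) or Sox2 -DOX replicate 2 (-1.63), and under another background correction, normexp with quantile normalization (-0.57). It was also lost when only these groups were fitted and in the authors' deposited table. In Sox2xOct4 +DOX mice Ccl4 had -2.62 and -2.09, against -2.35 and -2.90 in rtTA +DOX mice, and the groups overlapped. The difference of the responses, which also holds the drug and sucrose, was 3.09 for Ccl4 (adjusted p = 0.0803) and 1.87 ± 0.53 for Ccl3 (adjusted p = 0.287).

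Ccl5, a product of effector T cells, had 1.33 and 2.99 in Sox2 +DOX mice, against 5.10 and 4.74 in Sox2 -DOX mice. It had 2.50 and 1.67 in Sox2xOct4 +DOX mice and 0.19 and 1.54 in Oct4 +DOX mice, against 4.64 and 3.18 in rtTA +DOX mice. Thus the arrays of all 3 transgene groups on DOX lay below those of their controls, without overlap, and yet none of these differences was called. The change was -2.76 ± 0.72 for Sox2 +DOX against Sox2 -DOX mice (adjusted p = 0.0541). Against rtTA +DOX mice it was -1.82 ± 0.72 for Sox2xOct4 +DOX (adjusted p = 0.168) and -3.04 ± 0.72 for Oct4 +DOX mice (adjusted p = 0.0998). The comparisons of Sox2xOct4 and Oct4 mice use the same rtTA arrays.

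Ccl7, a monocyte attractant that binds CCR2, had -1.04 and -2.79 in Sox2 +DOX mice, against -4.83 and -3.72 in Sox2 -DOX mice, and was not called (2.36 ± 0.65, adjusted p = 0.0636). Ccl2, the best known CCR2 ligand, had -3.54 and -4.01 in Sox2 +DOX mice, against -3.51 and -2.64 in Sox2 -DOX mice. Ccl12, a mouse ligand of the same receptor, had -5.10 and -5.96 in Sox2 +DOX mice, against -4.54 and -3.47 in Sox2 -DOX mice (-1.52 ± 0.54, adjusted p = 0.121). So within 79.5 kb of chromosome 11 (chr11:81853343-81932860, NCBI36/mm8), where Ccl2, Ccl7, Ccl8, Ccl11 and Ccl12 have their probes, the fitted changes had both signs and none was called in that comparison. Ccl11, an eosinophil attractant, had -1.76 and -1.50 in Sox2 +DOX mice, against -4.41 and -2.20 in Sox2 -DOX mice, with a wide spread in the untreated pair (1.68 ± 0.75, adjusted p = 0.195). Ccl8, which attracts monocytes and in the mouse binds CCR8, had -2.39 and -3.14 in Sox2 +DOX mice, against -2.65 and -0.96 in Sox2 -DOX mice, and was called in no comparison. The probes for Ccl3, Ccl4, Ccl5, Ccl6 and Ccl9 lie within 138.8 kb further along (chr11:83341989-83480804). Ccl6 had 3.48 and 4.55 in Sox2 +DOX mice, against 4.52 and 4.58 in Sox2 -DOX mice, and Ccl9 had 0.97 and 1.93 in Sox2 +DOX mice, against 0.91 and 0.85 in Sox2 -DOX mice, with neither called.

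Ccl24, an eosinophil attractant that binds CCR3, had the widest range of any tested CC ligand over the arrays. It had 0.89 and 3.36 on the Oct4 +DOX arrays, against -3.93 and -2.62 on the rtTA +DOX arrays. On the Sox2xOct4 +DOX arrays it had -1.88 and -0.75. It had -8.52 and -4.95 in Sox2 +DOX mice, where replicate 1 was not well above background, against -2.79 and -3.04 in Sox2 -DOX mice. Oct4 +DOX arrays were thus the highest and Sox2 +DOX arrays the lowest of all 10. The Oct4 difference from rtTA +DOX mice was 42.2-fold (5.40 ± 1.17) but was not called for this probe (adjusted p = 0.083). A second Ccl24 probe, which was tested in a fit over all kept probes, had -0.85 and 1.73 in Oct4 +DOX mice, against -5.07 and -4.01 in rtTA +DOX mice, and was called there (4.98 ± 0.86, adjusted p = 0.041). For Sox2 +DOX mice the change against Sox2 -DOX mice was -3.82 ± 1.17 (adjusted p = 0.085). The receptor Ccr3 rose 6.29-fold in Sox2xOct4 +DOX mice, against rtTA +DOX mice (2.65 ± 0.47, adjusted p = 0.02), with 1 of the 2 rtTA +DOX arrays well above background.

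Among ligands made by the gut epithelium, Ccl25 fell. It binds CCR9 and guides lymphocytes to the small intestine. Its brightest probe had 2.94 and 4.99 on the Sox2 +DOX arrays, against 7.51 and 7.25 on the Sox2 -DOX arrays. It had 4.73 and 4.89 in Sox2xOct4 +DOX mice and 6.52 and 6.03 in Oct4 +DOX mice, against 6.55 and 7.24 in rtTA +DOX mice. The 4 arrays of mice with a Sox2 transgene on DOX were thus the lowest of the 10. Ccl25 fell by 3.42 ± 0.60 on the log2 scale in Sox2 +DOX against Sox2 -DOX mice (SE, adjusted p = 0.0158), and in Sox2xOct4 +DOX against rtTA +DOX mice it changed by -2.08 ± 0.60 and was not called (adjusted p = 0.0793). The call was lost without Sox2 -DOX replicate 1 (-3.29), Sox2 +DOX replicate 1 (-2.39) or Sox2 -DOX replicate 2 (-3.55). It was also lost when only these groups were fitted and in the authors' deposited table.

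Ccl25 had 3 probes. A probe that spans an intron (chr8:4354202-4357650, plus strand, NCBI36/mm8) is shown because it gave a further call: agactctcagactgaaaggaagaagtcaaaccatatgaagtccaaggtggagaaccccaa. This probe had -1.06 and 1.53 in Sox2 +DOX mice, against 4.15 and 3.62 in Sox2 -DOX mice, and 0.81 and 0.32 in Sox2xOct4 +DOX mice, against 3.73 and 3.80 in rtTA +DOX mice. In the fit over all probes it was called in both comparisons (-3.65 ± 0.71, adjusted p = 0.0234, and -3.20 ± 0.71, adjusted p = 0.0388). The remaining probe, upstream at chr8:4334502-4334561 and annotated by a cDNA clone, changed by -0.65 and -0.13 in the same comparisons and was not called. Markers of enterocytes, the absorptive cells that make Ccl25, had summed linear signals of 139 to 347 in Sox2 +DOX mice, against 686 to 822 in Sox2 -DOX mice, and of 264 to 705 in Sox2xOct4 +DOX mice, against 590 to 892 in rtTA +DOX mice. Of these 12 markers, Slc5a1, Alpi and Fabp1 fell in Sox2 +DOX against Sox2 -DOX mice, where 4.8% of all genes were called lower. The part of enterocytes in the Ccl25 values was not tested.

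Ccl28, a mucosal ligand of CCR10 that attracts plasma cells, had another order. It had -3.54 and -2.24 in Sox2xOct4 +DOX mice and -4.11 and -4.07 in Oct4 +DOX mice, against -0.51 and -0.39 in rtTA +DOX mice. In Sox2 +DOX mice it had -2.41 and -0.25, against -1.75 and -1.79 in Sox2 -DOX mice, and these groups overlapped. Both groups with an Oct4 transgene thus lay below rtTA +DOX mice without overlap. The change was 12.5-fold in Oct4 +DOX mice (-3.64 ± 0.66, adjusted p = 0.0504) and -2.44 ± 0.66 on the log2 scale in Sox2xOct4 +DOX mice (adjusted p = 0.0679), and neither was called. The receptor Ccr10 was at least 2.65-fold lower in Sox2xOct4 +DOX than in rtTA +DOX mice (adjusted p = 0.0495). Ccl20, which binds CCR6 and is made by the epithelium over lymphoid follicles, had -1.08 and -1.54 in Sox2 +DOX mice, against 0.35 and -1.37 in Sox2 -DOX mice, and was called in no comparison. Cxcl14, an epithelial ligand, had -0.77 and -0.14 in Sox2 +DOX mice, against 0.37 and 1.49 in Sox2 -DOX mice (-1.39 ± 0.40, adjusted p = 0.0715).

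Xcl1, which CD8 T cells and natural killer cells release and which binds XCR1 on cross-presenting dendritic cells, had -4.71 and -3.64 in Sox2 +DOX mice, against -2.49 and -2.28 in Sox2 -DOX mice. Against rtTA +DOX mice, on another slide, Xcl1 was not called in Sox2 +DOX mice. Against Sox2 -DOX mice it was 3.46-fold lower (-1.79 ± 0.43, adjusted p = 0.0424), the weakest of the 7 calls there. The call was lost without Sox2 -DOX replicate 1 (-1.89), Sox2 +DOX replicate 1 (-1.25) or Sox2 -DOX replicate 2 (-1.69), and under normexp with quantile normalization (-0.72). In all it was lost under 9 of 14 alternatives, among them quantile normalization, no filter on dim probes, the fit of these groups alone, the replicate block and the authors' deposited table. The membrane-anchored ligands were not called: Cx3cl1, which binds CX3CR1 on gut macrophages, had 1.61 and 3.23 in Sox2 +DOX mice, against 4.02 and 3.93 in Sox2 -DOX mice (-1.56 ± 0.54, adjusted p = 0.114). Cxcl16, which binds CXCR6, had -0.03 and 0.65 in Sox2 +DOX mice, against 0.91 and 0.36 in Sox2 -DOX mice.

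The ligands that organise lymphoid tissue, Ccl19, Ccl21a, Cxcl12 and Cxcl13, showed no call in Sox2 +DOX against Sox2 -DOX mice. Ccl19, a CCR7 ligand, had 0.61 and -1.29 in Sox2 +DOX mice, against 0.45 and 1.39 in Sox2 -DOX mice. Cxcl13, which draws B cells into follicles through CXCR5, had 0.64 and 0.12 in Sox2 +DOX mice, against 0.68 and -0.31 in Sox2 -DOX mice. Cxcl12, the CXCR4 ligand, had -2.06 and -1.56 in Sox2 +DOX mice, against -2.52 and -0.39 in Sox2 -DOX mice. Replicates of these genes often differed by more than 1 unit on the log2 scale, so small changes were not detectable with 2 arrays a group. Ccl21a, which the files name Ccl21b, and Ccl27a, along with Ccl19, have near-identical gene copies in the mouse, so their probes may read several copies. The 2 probes for Ccl19 disagreed in sign in Sox2xOct4 +DOX against rtTA +DOX mice (-0.79 and 1.36), with neither called. Ccl27a, an epithelial ligand of CCR10, had -2.27 and -2.18 in Sox2 +DOX mice, against -2.77 and -2.58 in Sox2 -DOX mice. Ccl17, a CCR4 ligand, had -1.21 and -0.25 in Oct4 +DOX mice, against -2.78 and -2.88 in rtTA +DOX mice (2.11 ± 0.44, adjusted p = 0.0755). Ccl17 thus lay higher on both Oct4 +DOX arrays without being called.

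In Sox2xOct4 +DOX against rtTA +DOX mice, 1 of 30 ligands was called (Cxcl5), where 6.34% of all tested genes were called. For 18 of 30 the groups did not overlap, beside 52.8% of all genes. There were 10 ligands at an unadjusted p under 0.05, beside 23.9% of all genes, and the median change was -0.12, beside 0.07 over all genes. In Oct4 +DOX against rtTA +DOX mice limma called none of the 30, where it called 1.01% of all genes, and 10 ligands had an unadjusted p under 0.05, beside 13.3% of all genes. The groups did not overlap for 19 of 30 ligands and for 46.3% of all genes. Nearest to the threshold were Ccl28, Ccl6 (-2.17 ± 0.42, 4.5-fold, adjusted p = 0.0575) and Ccl17. Ccl6, a myeloid CC ligand, had 2.87 and 2.47 in Oct4 +DOX mice, against 4.81 and 4.87 in rtTA +DOX mice. For the difference of the responses, none of the 30 was called, where 0.168% of all genes were. At an unadjusted p under 0.05 it had 9 ligands, beside 9.6% of all genes.

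**Figure D3:**
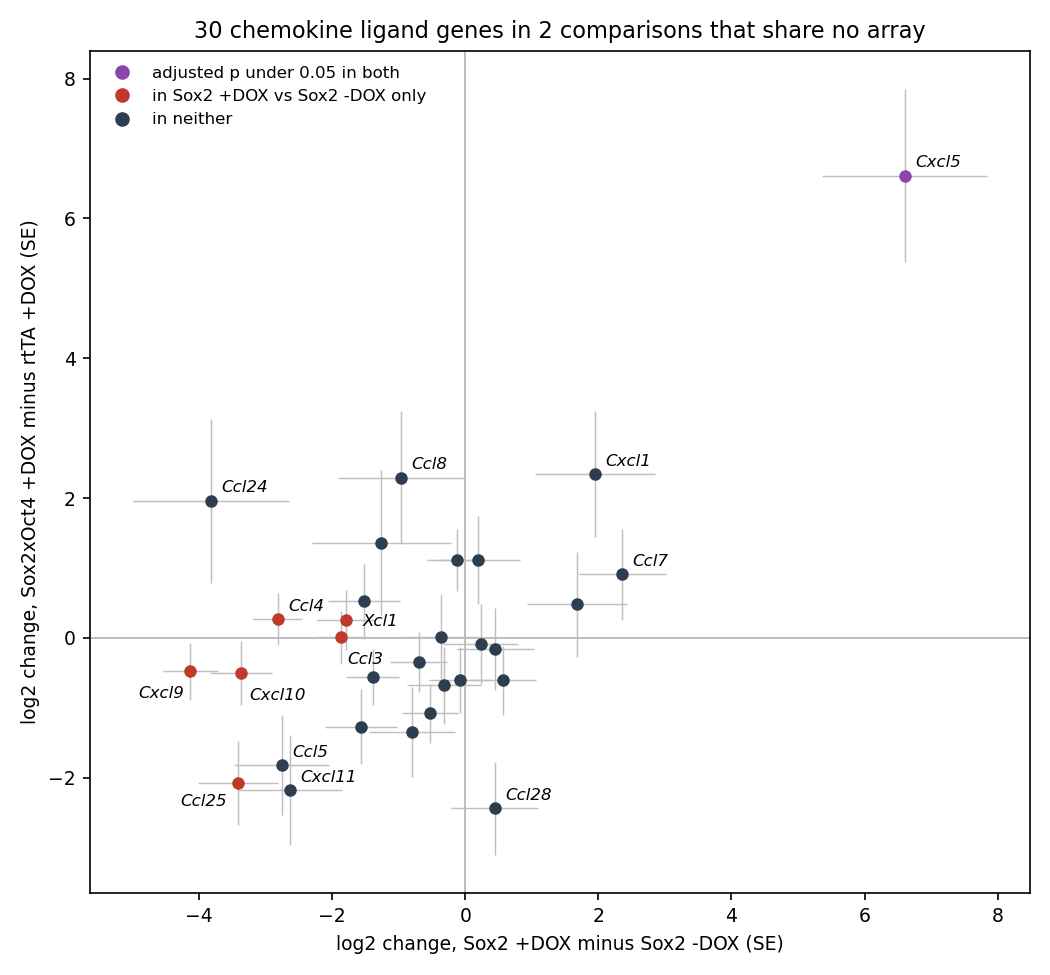
Log2 change of each of the 30 chemokine ligand genes in Sox2 +DOX against Sox2 -DOX mice (horizontal) and in Sox2xOct4 +DOX against rtTA +DOX mice (vertical), with lines for the SE. Cxcl5 lies at 6.60 and 6.61 and is called on both axes, while Cxcl9, Cxcl10, Ccl3, Ccl4 and Xcl1 lie left of 0 with vertical values between -0.50 and 0.27.

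Set against rtTA +DOX mice, which also drank DOX but sat on another slide, Sox2 +DOX mice had 7 of 30 ligands called, where 8.38% of all genes were called. Cxcl9 (4.27-fold, -2.09 ± 0.41, adjusted p = 0.0219), Cxcl10 (5.13-fold, adjusted p = 0.0226), Cxcl11 (9.5-fold, adjusted p = 0.0433) and Ccl25 (7.64-fold, adjusted p = 0.0253) were lower, where 5.14% of all genes were called lower. Cxcl5 (at least 94.4-fold, adjusted p = 0.0107), Cxcl1 (at least 6.54-fold, adjusted p = 0.0427) and Ccl7 (6.05-fold, adjusted p = 0.0475) were higher, where 3.23% of all genes were. A second Ccl7 probe, in limma's fit over all kept probes, was not called (2.56 ± 0.67, adjusted p = 0.0546). The groups did not overlap for 25 of 30 ligands and for 63% of all genes, and 15 ligands had an unadjusted p under 0.05, beside 28.5% of all genes. The bounds hold for the scaling used here. Under normexp background correction with quantile normalization the log2 change was 3.14 for Cxcl5, and the calls of Cxcl9 (-1.12), Cxcl1 (0.73) and Ccl7 (1.24) were lost. With no filter on dim probes the calls of Cxcl1, Cxcl11 and Ccl7 were lost, and each of the 7 calls was lost under at least 3 of the 14 alternatives. This comparison shares its Sox2 +DOX arrays with the one against Sox2 -DOX mice. Ccl3, Ccl4 and Xcl1 were called in that one and not here. Their means were -4.85, -4.04 and -4.18 in Sox2 +DOX mice, against -4.10, -2.62 and -3.23 in rtTA +DOX mice. No ligand was called without Sox2 +DOX replicate 1 (1.51% of all genes) or without rtTA replicate 1 (1.02%), and 1 was called without rtTA replicate 2 (2.15%). Between the control groups themselves, rtTA +DOX against Sox2 -DOX mice, limma called none of the 30 ligands and 0% of all genes, and 5 ligands had an unadjusted p under 0.05, beside 5.61% of all genes. Cxcl9 was among these, with a change of -2.04 ± 0.41 (adjusted p = 0.446), and Ccl4 changed by -1.41 (adjusted p = 0.484). The transgene, the drug, the sucrose, the slide and the sex-linked genes all differ between these controls and cannot be told apart.

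Genes that act on or with the ligands were described through lists. Of 23 chemokine receptors listed, 18 were tested and none was called in Sox2 +DOX against Sox2 -DOX mice by limma. At an unadjusted p under 0.05 there were 7, beside 27.1% of all genes. Of the 18, 15 were below 0, with a median change of -0.71, beside -0.10 over all genes. In Sox2xOct4 +DOX against rtTA +DOX mice, Ccr3 and Ccr2 (1.86 ± 0.35, adjusted p = 0.0241) rose and Ccr10 fell, where 6.34% of all genes were called. A further list held 25 inducers of chemokine genes and genes of their signalling, regulators of either sign included, and 24 were tested. Of these, 7 fell in Sox2 +DOX against Sox2 -DOX mice while none rose, where 4.8% of all genes were called lower and 3.03% higher. The median change was -1.09. Irf1, the interferon-induced transcription factor, had 3.11 and 4.06 in Sox2 +DOX mice, against 5.96 and 6.24 in Sox2 -DOX mice, and was 5.7-fold lower (-2.51 ± 0.40, adjusted p = 0.0121). Ifng, which encodes interferon-gamma, had -7.38 and -4.98 in Sox2 +DOX mice, against -2.43 and -1.32 in Sox2 -DOX mice, with 1 of the 2 Sox2 +DOX arrays well above background (-4.31 ± 0.84, adjusted p = 0.0234). The interleukin genes Il22 and Il1b were also among the 7. Il22 had -7.45 and -8.71 in Sox2 +DOX mice, with neither array well above background, against -3.55 and -3.94 in Sox2 -DOX mice. In Sox2xOct4 +DOX against rtTA +DOX mice Tnfaip3 and Jak2 fell, where 6.34% of all genes were called. In Oct4 +DOX mice limma called no gene of this list, with 1 at an unadjusted p under 0.05, beside 13.3% of all genes.

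**Figure D4:**
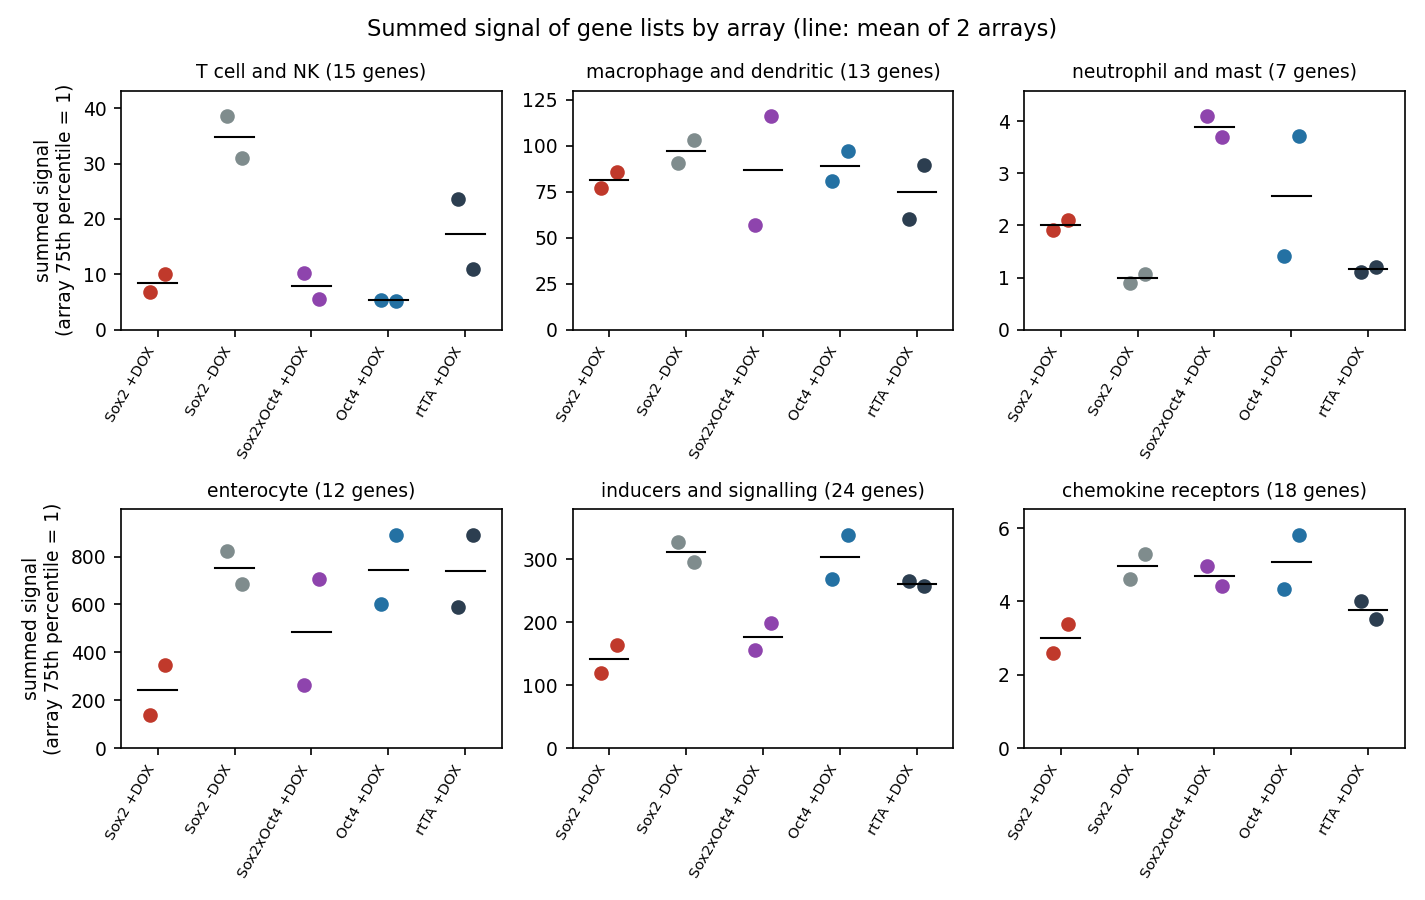
Summed linear signal of the tested genes of 4 marker lists, the list of inducers and their signalling, and the receptors on each of the 10 arrays. Signals are relative to the array's 75th percentile, 1 panel per list, with points for arrays and lines for group means. The T and natural killer cell sum is 31.1 to 38.6 on the Sox2 -DOX arrays and at or below 23.7 on all others.

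Markers of T and natural killer cells, which both make and follow several of these ligands, were among those that moved in the same comparison. Their summed linear signal was 6.75 to 10.1 in Sox2 +DOX mice, against 31.1 to 38.6 in Sox2 -DOX mice. It was 5.6 to 10.2 in Sox2xOct4 +DOX mice and 5.19 to 5.43 in Oct4 +DOX mice, against 11 to 23.7 in rtTA +DOX mice. Of 18 listed markers 15 were tested. Cd3d, Cd7, Nkg7, Gzmb and Cd5 fell in Sox2 +DOX against Sox2 -DOX mice, and all 15 had a change below 0, with a median of -2.04, where 4.8% of all genes were called lower. In Oct4 +DOX against rtTA +DOX mice the median was -1.42 and limma called none, with 10 at an unadjusted p under 0.05, beside 13.3% of all genes. Cxcl9 changed there by 1.33 ± 0.41 (adjusted p = 0.199). The T and natural killer sums were lowest in Oct4 +DOX mice, which sat on another slide, and the relation of these sums to Cxcl9 was not tested. For macrophages and dendritic cells the sums were 76.7 to 85.6 in Sox2 +DOX mice, against 90.7 to 103 in Sox2 -DOX mice, and of 13 markers 11 had a change below 0, with a median of -0.27, while 1, Cd68, was called and rose. For B and plasma cells the sums were 29.3 to 59 in Sox2 +DOX mice, against 58.5 to 117 in Sox2 -DOX mice. Of 11 markers limma called none, with 1 at an unadjusted p under 0.05, beside 27.1% of all genes. Other lists moved too. Adipocyte sums were 4.71 to 8.07 in Sox2 +DOX mice, against 22.9 to 33.2 in Sox2 -DOX mice, with all 5 changes below 0 and 1 called. Smooth muscle sums were 32.4 to 45.2 in Sox2 +DOX mice, against 83.1 to 114 in Sox2 -DOX mice, and they were 33.5 and 303 on the 2 Sox2xOct4 +DOX arrays, which thus stood far apart. Squamous and stomach markers summed to 9.6 to 11.2 in Sox2 +DOX mice, against 1.64 to 1.65 in Sox2 -DOX mice. Of 9 tested, 4 rose, where 3.03% of all genes were called higher. The keratins Krt6a (3.07 and 2.10) and Krt13 (1.03 and 1.95) gave most of the Sox2 +DOX sum. Of the stomach genes, Muc5ac had -4.82 and -4.46 in Sox2 +DOX mice, against -4.68 and -4.52 in Sox2 -DOX mice. Tff1 was similarly flat, Tff2 was higher (-5.91 and -5.20, against -8.03 and -7.88), and Gkn1 and Gkn2 were not tested. The part of these cells in the ligand values was not tested.

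Across the 10 arrays, which share groups and slides, the tested genes most like Cxcl9 by Pearson's r were ENSMUST00000074654 (0.97), Cxcl10 (0.96), Irf1 (0.95), AK008871 (0.94) and BC020078 (0.93). Among the ligands themselves, Ccl28 and Ccl6 had r = 0.93, Ccl3 and Xcl1 0.90, Ccl25 and Cxcl11 0.90, and Ccl17 and Ccl24 0.85. Ccl25 and Cxcl5 ran opposite, with r = -0.87. These are descriptions over 10 arrays in 5 groups. The 2 arrays of a group differed by a root mean square of 0.77 to 1.34 on the log2 scale over the ligands, beside 0.62 to 0.98 over all tested genes.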

How the data were processed

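RNA of 10 ileum samples was hybridised to 1-colour Agilent arrays with Cy3, per the labels' protocols, in 5 groups of 2 arrays. The deposited values are spot intensities after the scanner software's background correction, per the file headers. Agilent Feature Extraction 9.1 is named in the submitters' processing notes, but the file headers name later versions, a different one for each slide, so that the version also differs between groups compared across slides. A normalized table that the authors deposited for the 4 TetON-Sox2 arrays, as a ratio to an unstated baseline, was used as an alternative alone. Its values stand in 1 fixed ratio to the scanner signal for 72.1% to 75.2% of probes per array.

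From 41174 non-control probes, 31 with outlier spots were dropped. The log2 signal was scaled by subtracting each array's 75th percentile, and spots of a probe were averaged. A probe was kept where some group had it well above background on both its arrays. Symbols followed RefSeq through the accession, for 80.2% of probes and for all 45 chemokine probes. limma 3.58.1 in R 4.3.3 fitted 1 mean per group over all 10 arrays, with empirical Bayes variances and Benjamini-Hochberg adjustment over 19055 genes at 0.05; the script was tested on simulated data. With 2 arrays a group, 5 residual degrees of freedom limit the precision. The replicate numbers were checked for pairing, with correlations of same-numbered deviations of -0.13 to 0.27. These do not exclude a shared structure. The samples were treated as unpaired, and a replicate block was run as an alternative.

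The ligands and lists were chosen with earlier results of these data known. Every ligand matched by name is accounted for, those called or belonging to a role group are described, and up to 4 genes by smallest p per comparison are named from the receptor and inducer lists. Alternatives were background correction, normalization, probe filter, all probes, variance trend, compared groups alone, replicate block, slide block, floor, the authors' table and each array left out. Coordinates of probes are those of the files (NCBI36/mm8); promoters are RefSeq sequences on GRCm38.p6.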

Additional observations from a re-analysis of the deposited data

How the results depend on the processing

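Ligand results called in the main fit were each followed under the alternatives, which gave 209 results. Of these, 139 kept direction and call, 70 kept direction and lost the call, and 0 reversed. Ligands not called in a comparison were not followed there, so these counts do not describe the stability of their direction. Cxcl9 in Sox2 +DOX against Sox2 -DOX mice kept its call in all 14 alternatives run for it, at -4.65 to -2.77. Slide as a block is among the 14, and it could not change this result. The 139 likewise include the slide block for comparisons within a slide, where the outcome was fixed. Unless an alternative's own construction shows it (fewer arrays or more genes tested), the cause of a change was not tested.

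In Sox2 +DOX against Sox2 -DOX mice the ligands called numbered 7, against 3 when only these groups were fitted, 4 in the authors' table and 2 to 12 with 1 array left out. The lowest count, 2, came without replicate 1 of either group, and 12 came without Sox2 +DOX replicate 2. In Sox2xOct4 +DOX against rtTA +DOX mice the count was 1, against 3 with a variance trend (Ccl25, Ccl28 and Cxcl5), 2 with the replicate block (Ccl28 and Cxcl5) and 0 without any 1 of the 4 arrays. In Oct4 +DOX against rtTA +DOX mice it was 0, against 1 with quantile normalization, with all probes or with only these groups (Ccl28 each time), 2 with a variance trend (Ccl28 and Ccl6), 2 with values floored at each array's dimmest reliable signal (Ccl24 and Ccl28) and 3 with the replicate block (Ccl17, Ccl24 and Ccl28). In Sox2 +DOX against rtTA +DOX mice it was 7, against 4 with normexp background correction, 4 with no filter on dim probes, 4 with only these groups and 0 to 7 with 1 array left out. With replicate numbers crossed between these 2 groups, chosen after seeing the data because of their correlation of -0.13, 5 were called, against 7 with the plain replicate block on the same arrays. The replicate block gave 7 in Sox2 +DOX against Sox2 -DOX mice and 6 in Sox2 +DOX against rtTA +DOX mice, although Xcl1 lost its call under it in the first (-1.79), and Ccl7 (2.60) and Cxcl11 (-3.25) in the second. Slide as a block cannot change contrasts between groups that share a slide, as it was fitted here. Counts for rtTA +DOX against Sox2 -DOX mice and for the difference of the responses were 0 under every alternative run.

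Over all genes, the median change in Sox2 +DOX against Sox2 -DOX mice was -0.10 as reported, 0.00 under normexp and -0.30 with no filter, so ligand medians are best read against those values. Signal over background limits Cxcl5 and Cxcl1 in Sox2 -DOX mice, Ccl24 and Ifng in Sox2 +DOX mice and Ccr3 in rtTA +DOX mice. In these, 1 of 2 arrays was dim and the fitted change rests in part on a signal near background. Dim on both arrays were Il22 in Sox2 +DOX mice, Cxcl5 and Cxcl1 in rtTA +DOX mice, Cxcl3 in Sox2 -DOX mice and Ccr10 in Sox2xOct4 +DOX mice.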
